A study of Capsicum annuum with 2 samples.

Results

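Some groups of assembled anther transcripts of chili pepper (Capsicum annuum) held members that went opposite ways between 2 near-isogenic lines, 1 with cytoplasmic male sterility (CMS) and 1 with restored fertility. The groups were Trinity components, and their members were chosen by measured values. A listed unigene was counted if it had at least 100 reads in both libraries together, and a component was kept if it held at least 1 such unigene with a higher RPKM in the CMS line and at least 1 with a higher RPKM in the restorer line. RPKM divides the reads by the length of the unigene and by all counted reads of its library. This gave 229 unigenes in 95 components, out of 11387 listed unigenes. The 95 were 23.8% of the 400 components with at least 2 unigenes that reached 100 reads. The reads and RPKM of both libraries therefore chose the members, and the ratios below are a description with no test.

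The CMS line, 121A, carried a sterile cytoplasm and no restorer gene. The restorer line, 121C, had the same source of cytoplasm and 1 dominant restorer gene brought in from another cultivar. Both had been backcrossed repeatedly to the same inbred line, so the groups share cytoplasm and much of the nuclear background. From each line, anthers of 20 plants in 5 bud phases were pooled into 1 library, so no difference has a replicate library, and plants and phases cannot be told apart. The totals recovered from the table were 10744829 counted reads for 121A and 9552875 for 121C, and it listed only unigenes that the authors had called different. Their call asked, among other things, for an absolute log2 ratio of at least 1. One listed unigene that is no member, comp48143_c0_seq1, took 32.3% of the CMS library and 1.27% of the restorer library. Leaving out the 10 most abundant listed unigenes of each library raised every log2 ratio by 0.43, which brought 17 of the 229 members below an absolute log2 ratio of 1. A shift of this size could turn no direction, as every member was past 1. The annotations used here are the 1999 that come first by name in a longer table. None of the listed unigenes they cover (317) has an anther or pollen keyword, so the tissue label was not checked.

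In cytoplasmic male sterility a mitochondrial trait stops the formation of functional pollen, and a nuclear restorer gene can overcome it. Trinity, which assembles transcripts without a genome, first joins overlapping sequence into components (comp), splits each component into separate graphs (c, here called subcomponents), and reads paths through each graph as sequences (seq). Sequences of 1 subcomponent are usually taken as isoforms or alleles of a gene. Different subcomponents of 1 component may share some sequence and may be parts of a gene, members of a gene family or unrelated transcripts joined by a short common stretch. An opposite change within a component is thus a place where a sum over the component and its single unigenes can give different answers.

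The names show at what level the members were opposed. All of the 11387 listed unigenes ended in seq1, and 0 subcomponents had more than 1 listed unigene. All 142 opposite pairs, each made of a CMS-higher and a restorer-higher unigene of a component, therefore joined different subcomponents. No pair of isoforms was listed, so none could be opposed. How reads that match several unigenes were assigned is not given in the sources used here, and the part of shared reads in these ratios was not tested. Of the 95 components, 67 had 2 members, 20 had 3, 5 had 4 and 3 had 5.

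Of the 229 members, 1 has a gene name in the sources used here. The unigene comp61317_c2_seq1 was described by the study as glutamine synthetase, the enzyme that joins ammonium to glutamate to form glutamine and so brings inorganic nitrogen into amino acids. It was among the 20 unigenes that the study checked by RT-PCR, which held no other member. The paper reports that the patterns of these unigenes in both lines matched its sequencing, with some inconsistent results. A figure of the paper plots real-time RT-PCR levels, relative to actin, of its selected unigenes of known function, which include this one. The text of the paper gives no RT-PCR value for this unigene, and the RT-PCR used the total RNA isolated for the sequencing. The 1999 annotations covered 0 of the members, and no member name matched the RefSeq gene table. The other unigenes are therefore given by their assembly names. The primers that the study lists for the glutamine synthetase unigene are shown because they mark which sequence of this component the name belongs to. They are printed 5′ to 3′ in lower case with no part in capitals.
forward primer: ggtcgcccgttacattctcg
reverse primer: atagcctccatctgccctca

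The glutamine synthetase unigene went against the other members of its component, which was also the component with the most reads on members. It had 69 reads (3.94 RPKM) in 121A and 910 reads (58.5 RPKM) in 121C, a log2 ratio (121A over 121C) of -3.89 (95% Clopper-Pearson interval -4.27 to -3.54). This and every other interval covers counting error only. The other 3 members of comp61317 were all higher in the CMS line. The unigene comp61317_c1_seq1 had 16311 reads in 121A, 2630 in 121C and a ratio of 2.46 (interval 2.40 to 2.52). For comp61317_c3_seq1 these were 42296 and 6522 reads and a ratio of 2.53 (interval 2.49 to 2.57), and for comp61317_c5_seq1 they were 13481 and 1893 reads and a ratio of 2.66 (interval 2.59 to 2.73). The CMS-higher unigenes lay close together, within 0.20 on the log2 scale, while the glutamine synthetase unigene lay on the other side of 0. Their lengths differed widely. The glutamine synthetase unigene was 1629 bp and comp61317_c1_seq1 was 2069 bp, but comp61317_c5_seq1 was 8924 bp and comp61317_c3_seq1 was 19892 bp, the longest of all listed unigenes. Whether these sequences belong to 1 gene was not tested.

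The sum over comp61317 had the direction opposite to its glutamine synthetase unigene. Its members together had 72157 reads in 121A and 11955 in 121C, a log2 ratio of 2.42 (interval 2.40 to 2.45), to which the glutamine synthetase unigene added 979 of 84112 reads. Summed over its members, comp61317 was higher in the CMS line, and read as a named unigene it was higher in the restorer line. In RNA of whole anthers, fewer cells of a type and less RNA per cell cannot be told apart, here and for all members.

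**Figure D1:**
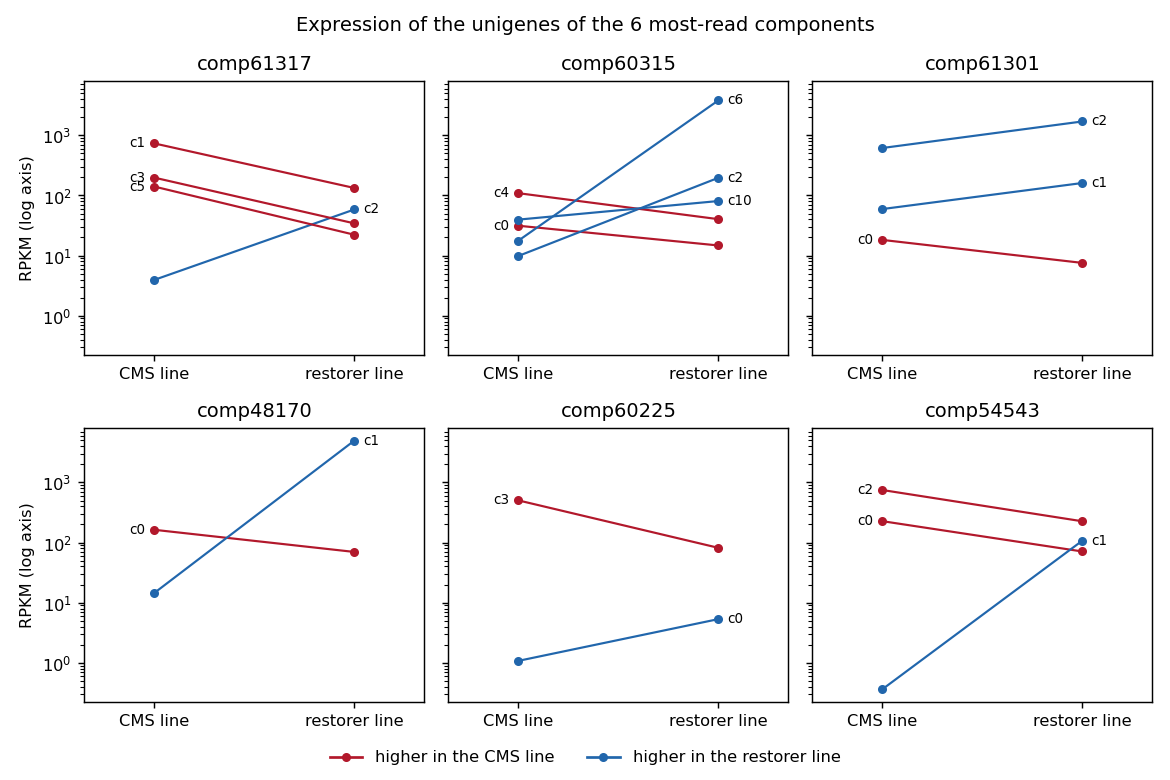
RPKM (log axis) of each member of the 6 components with the most reads in the single CMS library and the single restorer library, with lines joining the values of a unigene and labels giving its subcomponent number. In comp61317 the 3 CMS-higher unigenes slope down to the restorer line while c2, glutamine synthetase, goes from 3.94 to 58.5 RPKM, and in comp60315 and comp48170 the steepest lines reach 3815 and 4965 RPKM in the restorer line.

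In the 3 next most-read components the restorer-higher unigenes held most of the reads. The component comp60315 had 5 members. Its most-read unigene, comp60315_c6_seq1 (1806 bp), had 343 reads (17.7 RPKM) in 121A and 65810 reads (3815 RPKM) in 121C, a log2 ratio of -7.75 (interval -7.91 to -7.60). On the other side, comp60315_c4_seq1 (2933 bp) had 3439 and 1130 reads, respectively, and a ratio of 1.44 (interval 1.34 to 1.53). The most abundant member was thus c4 in the CMS line, at 109 RPKM, and c6 in the restorer line. The remaining members also stood on both sides, with ratios of 1.09 for comp60315_c0_seq1, -4.32 for comp60315_c2_seq1 and -1.03 for comp60315_c10_seq1. Of these, c0 and c2 were nearly equal in length, 2551 and 2562 bp, and went opposite ways.

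The component comp48170 had only 2 members, and their ratios were the furthest apart among the components with at least 10 reads in each library at both ends. Its unigene comp48170_c1_seq1 (841 bp) had 131 reads in 121A and 39889 in 121C, a log2 ratio of -8.42 (interval -8.68 to -8.17). At 4965 RPKM in the restorer line it had the highest RPKM of all members. The short unigene comp48170_c0_seq1 (366 bp) had 641 and 244 reads and a ratio of 1.22 (interval 1.01 to 1.44). In the CMS line c0 was the more abundant per length, with 163 RPKM against 14.5 RPKM for c1, and in the restorer line it was the less abundant, with 69.8 RPKM. In comp61301, by contrast, the same unigene led in both lines. There comp61301_c2_seq1 (2485 bp) had 16422 reads in 121A and 40366 in 121C, a ratio of -1.47 (interval -1.49 to -1.44), and held 98.2% of the reads on members of the component. The CMS-higher unigene comp61301_c0_seq1 (1358 bp) had 266 and 98 reads and a ratio of 1.27 (interval 0.93 to 1.62).

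In the other 2 of the most-read components, as in comp61317, the CMS-higher unigenes held most of the reads. The unigene comp60225_c3_seq1 (5046 bp) had 27257 reads (503 RPKM) in 121A and 3937 reads (81.7 RPKM) in 121C, a log2 ratio of 2.62 (interval 2.57 to 2.67). Its opposite, comp60225_c0_seq1 (2159 bp), had 25 and 110 reads and a ratio of -2.31 (interval -3.00 to -1.67). In comp54543, comp54543_c2_seq1 (1647 bp) had 13230 and 3551 reads and a ratio of 1.73 (interval 1.67 to 1.78), close to the 1.68 of comp54543_c0_seq1 (1094 bp). The third member, comp54543_c1_seq1 (1025 bp), had 4 reads in 121A against 1055 in 121C, with a ratio of -8.21 (interval -10.09 to -6.85). The 6 most-read components together held 59.9% of the 526461 reads on members.

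Over all 95 components the members were split almost evenly by direction. Of the 229 members, 116 (50.7%) were CMS-higher and 113 (49.3%) restorer-higher. Of the 5580 listed unigenes with at least 100 reads, 39.5% were CMS-higher and 60.5% restorer-higher, and of all 11387 these were 38% and 62%. As the rule asked for both directions in each component, nothing is read from this difference.

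The sizes of the ratios differed between the sides. The CMS-higher members had a median log2 ratio of 1.61 (quartiles 1.24 and 2.22), and the highest was 4.03. The restorer-higher members had a median of -2.54, and 29 of them (25.7%) were at or past 5 in size, against 0 CMS-higher members. Of all unigenes at the read minimum, 34.3% of the restorer-higher and 0.999% of the CMS-higher ones were past 5. For all unigenes with at least 100 reads the medians were 1.48 and -2.65, respectively, so the whole table had this asymmetry. At a log2 ratio at or past 2, 40 members were CMS-higher (17.5%, against 9.68% of the 5580 and 19.5% of all listed) and 73 restorer-higher (31.9%, against 36.2% and 47.7%). These shares also carry the split of sides, which the rule shaped. Within the CMS-higher side, 34.5% of members were at or past 2, against 24.5% at the read minimum. In components with at least 2 unigenes, all of 1 direction, it was 37.0%. Within the restorer-higher side these shares were 64.6%, 59.8% and 68.0%, respectively. In 71 of the 95 components the unigene furthest from 0 was restorer-higher, and in 24 it was CMS-higher. Both ends were past 2 in 24 components. The 0.43 shift moves every CMS-higher ratio away from 0 and every restorer-higher ratio towards it.

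**Figure D2:**
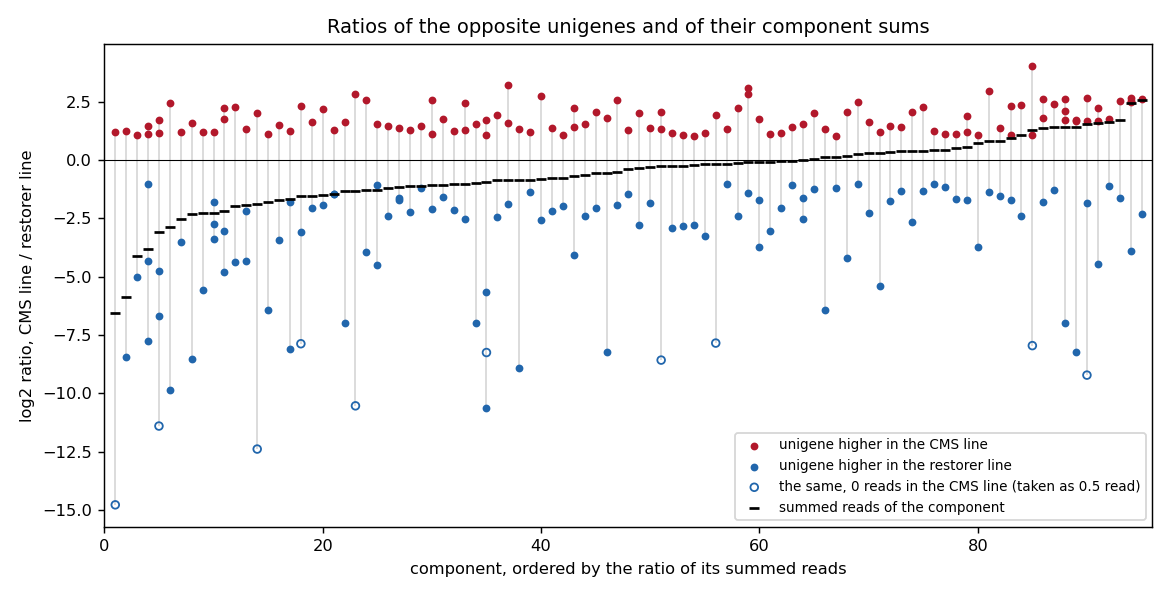
Log2 ratio of 121A over 121C for each of the 229 members (points), for the 95 components in the order of the ratio of their summed reads (black marks), with 1 library per line. CMS-higher points stay between 1.04 and 4.03, while restorer-higher points reach -14.77 (0 reads drawn as 0.5 read), and the sums cross 0 after the 63rd component.

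Near absence from the other line was found only among the restorer-higher members. Of these, 19 had 3 reads or fewer in 121A, and 10 of them had 0. Of the 116 CMS-higher members, 0 had so few reads in the restorer line, and the lowest was comp60802_c6_seq1 with 93 reads in 121A and 9 in 121C. The same shares over all unigenes with at least 100 reads were 24.3% of the restorer-higher and 0.95% of the CMS-higher unigenes, against 16.8% and 0% of the members. No component held unigenes that were nearly absent from each of the lines. As 0% is near the 0.95% of the whole table, nothing is read from this about the components.

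The clearest of these cases were named after their values were seen. The unigene comp59916_c12_seq1 (1889 bp) had 0 reads in 121A and 12414 reads (688 RPKM) in 121C. With the 3 reads that a count of 0 allows, the level in 121C was at least 4654-fold higher. Its component partner comp59916_c8_seq1 (1562 bp) was found in both lines, with 149 reads in 121A and 58 in 121C, with a ratio of 1.19 (interval 0.74 to 1.66). Likewise, comp60177_c9_seq1 (1969 bp) had 0 and 2370 reads, with a level at least 889-fold higher in 121C, while comp60177_c5_seq1 (4012 bp) had 784 and 173 reads and a ratio of 2.01 (interval 1.77 to 2.26). In both components a unigene without reads in the CMS line stood beside one that was higher there, 2.28-fold in comp59916 and 4.03-fold in comp60177.

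The component comp61394 held the largest ratio towards the CMS line. The unigene comp61394_c6_seq1 (2208 bp) had 385 reads in 121A and 21 in 121C, a log2 ratio of 4.03 (interval 3.39 to 4.74). It stood beside comp61394_c9_seq1 (861 bp), with 0 and 110 reads and a level at least 41.2-fold higher in 121C. The third member, comp61394_c7_seq1 (588 bp), had 201 and 84 reads and a ratio of 1.09. This component, too, was named after its values were seen.

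Among the components with at least 10 reads in each library at both ends, comp60473, comp60023 and comp61552 followed comp48170 and comp60315 in the distance between their highest and lowest ratio. In comp60473, comp60473_c6_seq1 (3977 bp) had 293 reads in 121A and 2171 in 121C and a log2 ratio of -3.06, and comp60473_c0_seq1 (2382 bp) had 12 and 293 reads and a ratio of -4.78. Against them stood comp60473_c9_seq1 with 165 and 44 reads (1.74) and comp60473_c4_seq1 with 159 and 30 reads (2.24), of 1851 and 1977 bp. The component thus had 2 unigenes on each side.

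The other components of this kind had 1 unigene on each side. In comp60023, comp60023_c2_seq1 (2262 bp) had 45 reads in 121A and 1874 in 121C, a log2 ratio of -5.55 (interval -6.01 to -5.12), against 428 and 164 reads and a ratio of 1.21 (interval 0.95 to 1.48) for comp60023_c0_seq1 (940 bp). In comp61552 the neighbouring subcomponents c6 and c7 were opposed. The unigene comp61552_c6_seq1 (960 bp) had 441 and 81 reads and a ratio of 2.28 (interval 1.93 to 2.64), and comp61552_c7_seq1 (2269 bp) had 98 and 1797 reads and a ratio of -4.37 (interval -4.67 to -4.07).

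Of the 3 components with 5 members, comp60315 had the most reads and comp59415 followed. Its restorer-higher unigenes were almost absent from the CMS line, where comp59415_c5_seq1 (1319 bp), comp59415_c0_seq1 (513 bp) and comp59415_c9_seq1 (256 bp) had 2, 3 and 0 reads. In the restorer line they had 2771, 135 and 135 reads. The ratio of comp59415_c5_seq1 was -10.61 (interval -13.65 to -8.75). Its CMS-higher unigenes were present in both lines, with 1777 and 761 reads for comp59415_c2_seq1 (3556 bp), a ratio of 1.05 (interval 0.93 to 1.18), and 492 and 135 reads for comp59415_c1_seq1 (2301 bp), a ratio of 1.70. In this component every CMS-higher unigene was longer than every restorer-higher one.

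Summed over the members of a component, the reads of both lines were often closer to each other than those of its unigenes. The absolute log2 ratio of the sum had a median of 0.93, and it was below 1 in 50 of the 95 components (52.6%). Every member by itself was past 1, as the authors' call asked for this. A sum of reads over opposite members must lie between their ratios, so only its position between them is a result. The sum was at or past 1 towards the CMS line in 12 components (12.6%) and towards the restorer line in 33 (34.7%). Over all 400 components with at least 2 unigenes at the read minimum these shares were 31.2% and 56.2%, and this includes 305 components of 1 direction, whose sums must pass. In 16 components the interval of the sum included 0. The median ratio of the sums was -0.41 (quartiles -1.29 and 0.32), and with the 10 most abundant unigenes of each library left out of the totals it was 0.02. With these totals 16 sums were at or past 1 towards the CMS line and 21 towards the restorer line. How far the sums leaned to the restorer line, and the sign of their median, thus depended on the scaling.

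In 5 components the sums of both lines were closest to each other. The nearest was comp53663, with 1394 reads in 121A and 1226 in 121C, and its log2 ratio was 0.02 (interval -0.10 to 0.13). Within it, comp53663_c1_seq1 (1078 bp) had 1155 and 348 reads and a ratio of 1.56 (interval 1.39 to 1.74). Its opposites were comp53663_c2_seq1 (591 bp) with 94 and 481 reads and a ratio of -2.52 (interval -2.86 to -2.20), and comp53663_c0_seq1 (551 bp) with 145 and 397 reads and -1.62. With reads summed and all counted reads as totals, a sum whose interval included 0 was made here of 3 unigenes that each differed about 3-fold or more. With the 10 most abundant unigenes of each library left out of the totals, the interval of this sum rises by 0.43 and lies above 0. When RPKM was summed in place of reads, the ratio of comp53663 was -0.48. Its nearness to 0 thus depended on the scaling and on the measure.

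The 4 others had fewer reads and also sums near 0. In comp61106 (sum 0.05), comp61106_c2_seq1 had 140 reads in 121A and 31 in 121C, and comp61106_c4_seq1 had 73 and 152. In comp51091 (sum -0.06), comp51091_c1_seq1 had 75 and 25 reads and comp51091_c2_seq1 had 47 and 88. In comp59206 (sum -0.06), comp59206_c5_seq1 had 414 and 163 reads and comp59206_c4_seq1 had 80 and 295. The last was comp60100 (sum -0.07), where comp60100_c2_seq1 had 148 and 60 reads and comp60100_c1_seq1 had 12 and 89. At their read numbers the intervals of the sums were up to 0.76 wide on the log2 scale, so a small difference of these sums was not detectable. The other totals raise each of these sums by 0.43 as well. By summed RPKM the ratio was 0.75 in comp59206, 0.27 in comp51091, 0.14 in comp61106 and -0.17 in comp60100.

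The sum mostly followed the unigene with the most reads. In 81 of 95 components both had the same direction, and the most-read unigene held a median of 66.6% of the reads on members of its component (quartiles 60.4% and 78.7%). Both values are in large part fixed by the measure. The most-read unigene weighs most in a sum of reads, and of 2 members it must hold at least 50% of the reads. In the 14 other components, 12 sums were restorer-higher. The most-read unigene was CMS-higher in 42 components and restorer-higher in 53. At least 90% of the reads lay on 1 unigene in 11 components. When RPKM was summed in place of reads, so that a short unigene counted as much as a long one, the direction of the sum changed in 18 components.

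The make-up of a component was also different in each line, in the direction that the rule fixes. The CMS-higher unigenes held a median of 87.8% of the summed RPKM of the members of a component in the CMS line (quartiles 69.3% and 97.7%) and 19.2% in the restorer line (quartiles 8.96% and 36.3%). The difference had a median of 53.2 percentage points. In 64 components they held over 50% in 121A and under 50% in 121C. The member with the highest RPKM was a different one in each line in 65 components (68.4%) and the same one in 30. Of these 30, it was CMS-higher in 18, as in comp61317, comp60225 and comp54543, and restorer-higher in 12, as in comp61301.

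**Figure D3:**
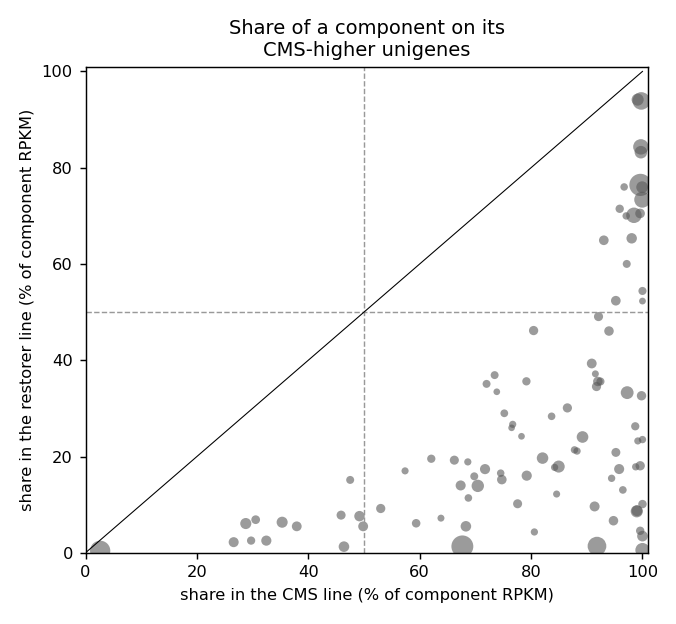
Share of the summed RPKM of the members of each of the 95 components that lay on its CMS-higher unigenes, in the CMS line (x axis) and in the restorer line (y axis), with larger points for components with more reads and dashed lines at 50%. The rule places all points below the diagonal, and 64 of them lie in the lower right corner, where the leading side differs between the lines.

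The rule used the component number of a name but not its subcomponent number, and it used length only in so far as a long unigene reaches the read minimum more easily. Both were compared between the components with exactly 2 unigenes at the read minimum, 67 of them opposite and 277 of 1 direction. In opposite components the subcomponent numbers were neighbouring, that is differed by 1, in 24 of 67 (35.8%), and in components of 1 direction in 205 of 277 (74.0%). The median of the higher number was 3 in the opposite ones and 1 in the others. The difference cannot exceed the higher number, and where that number is 1 the unigenes must be neighbours. The share of neighbours therefore in part restates how high the numbers of a component run. Opposite unigenes were also longer, with a median of 1448 bp (quartiles 962 and 2047) against 866 bp (quartiles 495 and 1471). Their length was near the median of 1340 bp over all 5580 unigenes at the read minimum, and it was the components of 1 direction that held short unigenes. Opposite unigenes had a median of 435 reads and the others of 303 reads. The groups also differed in component number, which began at comp48170 in the opposite ones and at comp26718 in the others. The part of read number and of component number in these differences was not tested. The differences have no test, as each line has 1 library and the unigenes of a component may share sequence.

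**Figure D4:**
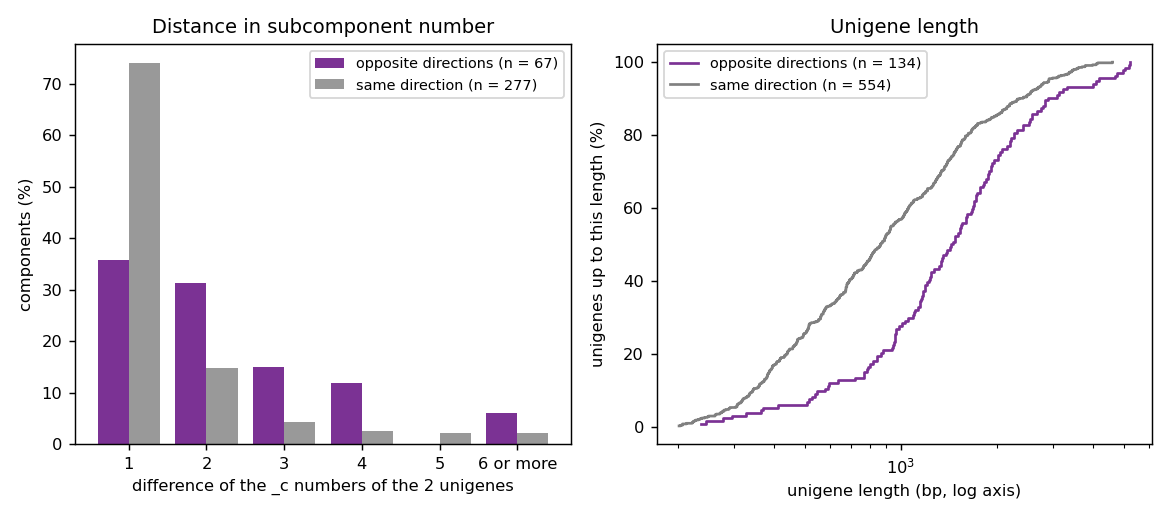
Components with 2 unigenes at the read minimum, by the difference of their subcomponent numbers (left, % of components) and by unigene length (right, cumulative % of unigenes, log axis), for 67 components with opposite unigenes and 277 with unigenes of the same direction. A difference of 1 is found in 35.8% and 74.0%, and it is forced where the higher number is 1. The length curve of the opposite unigenes lies to the right, with medians of 1448 and 866 bp.

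Within the opposite pairs, neither side was regularly the longer. Pairs of a component with more than 2 members share unigenes. The CMS-higher unigene was the longer one in 72 of 142 pairs and the restorer-higher one in 70. The median ratio of the lengths was 1.02 (quartiles 0.52 and 1.74). The unigenes of a pair were often unequal in length, with the longer one a median of 1.85 times the shorter, and at least 2 times in 65 pairs. Same-direction pairs had a like value of 1.82. The extremes were comp59415_c2_seq1, 13.9 times as long as comp59415_c9_seq1, and comp61179_c0_seq1 (286 bp), which had 0.076 times the length of comp61179_c2_seq1. Subcomponent c0 was CMS-higher in 30 of the 45 components where it was a member (66.7%), against 50.7% of all members and 37.1% of the 4037 c0 unigenes at the read minimum. This has no test.

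The share of opposite components was higher with the number of unigenes that could differ. It was 23.8% over the 400 components with at least 2 unigenes at the read minimum, 19.5% of 344 with 2 unigenes, 45.5% of 44 with 3 and 66.7% of 12 with 4 or more. A component with more unigenes has more pairs that can be opposed, so no more is read from this order.

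The components also held sequences outside the members. A further 49 listed unigenes of 34 components had fewer than 100 reads, 28 of them CMS-higher and 21 restorer-higher. With them, 278 unigenes of the 95 components were listed, while the subcomponent numbers ran up to 15 and implied at least 556 if numbered without gaps. The other subcomponents were not analysed here, so a sum over listed unigenes is not the sum over a component. At the read minimum, comp51091_c1_seq1 with 100 reads and comp60100_c1_seq1 with 101 were just inside. Just outside, comp59714_c0_seq1 had 84 reads in 121A and 15 in 121C, and comp52782_c2_seq1 had 82 and 17. The latter would have made comp52782 opposite, and 4 components would have been gained at a minimum of 90 reads.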

How the data were processed

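RNA of anthers was sequenced in 1 library per line. The submitters' processing notes name CASAVA. The authors removed low-quality reads and reads under 70 bases and assembled both lines with Trinity. The aligner and the treatment of reads matching several unigenes are not given in the sources used here. The authors deposited counts (whole reads per unigene) and RPKM, which the authors computed from them. Their log2 ratio, q-value and call columns hold their own comparison of the lines and were not used. All listed unigenes had passed their DEGseq threshold.

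Library totals were recovered from counts and RPKM, as lengths are whole numbers (largest deviation 4.04e-06 bp). Log2 ratios were scaled by these totals, with 0 reads taken as 0.5 read. Intervals (95%, Clopper-Pearson, scipy 1.17.1 under Python 3.11.15) were computed for the part of the reads that came from 121A, converted to a ratio, and cover counting error only. The functions were tested on simulated data. With 1 library per line, no test was made. Sums are over members.

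Named are the 6 most-read components, the 5 with the widest gap of ratios (at least 10 reads in each library at both ends), the 5 with sums nearest 0, up to 2 with the most members, up to 10 with an annotated member, and opposite pairs within a subcomponent, of which there were 0. Other names are marked, or are extremes or members next to a threshold, chosen after their values were seen. The members and lists were chosen with earlier results of these data known.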

Additional observations from a re-analysis of the deposited data

How the results depend on the processing

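The 95 components became 59 at a minimum of 200 reads, 24 when every unigene had to reach an absolute log2 ratio of 2 (14.5% of the components with at least 2 such unigenes) and 60 when the 95% interval of every unigene had to lie past 1, an alternative added with the data in view. By subcomponent in place of component the number was 0, as it must be with 1 sequence each. The 65 components led by different unigenes became 40 at a minimum of 200 reads, where fewer components remain. Sums past a log2 ratio of 2 were 2 towards the CMS line and 11 towards the restorer line. With the 10 most abundant unigenes of each library left out of the totals, sums past 1 towards the restorer line were 21, and the median of the sums turned from -0.41 to 0.021. A minimum of 50 reads, a minimum mean of 1 RPKM, sums over all listed unigenes and summed RPKM kept the counts within 1.5 times. Of the 43 named unigenes, 0 changed direction with these totals or with a pseudocount of 1 RPKM. No paired analysis was possible because each line has 1 library. Depth limits the small members most.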
